A study of Homo sapiens with 27 samples.

Results

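The 9 genes of HLA class I antigen presentation described here were followed through 9 groups of cultured cancer cells. They were 4 class I heavy chain genes (HLA-B, HLA-C, HLA-E and HLA-F), the light chain gene B2M, both subunits of the peptide transporter (TAP1 and TAP2) and 2 subunits of the immunoproteasome (PSMB8 and PSMB9). The genes were listed by name for their place in the pathway, with earlier results of these data known. Each matched 1 row of the 24566 rows of the count table through its Entrez ID. RNA was sequenced from A431, an established human epidermoid carcinoma line, and from MDA-MB-231, an established human breast adenocarcinoma line, after 48 h, with 3 libraries in each group. A431 cells were untreated, given a vehicle control that the labels do not identify, or treated with CKI, doxorubicin or both. MDA-MB-231 cells were untreated or treated with CKI, 5-Fu or both. CKI is Compound Kushen Injection, a preparation of the herbs Kushen and Baituling, here at 1 mg/ml (a dilution of 1 in 20), and 5-Fu, a fluoropyrimidine that disturbs DNA and RNA synthesis, was given at 10 ug/ml. Doxorubicin is an anthracycline that damages DNA, and its dose is not printed because the labels list more than one without assigning it. MDA-MB-231 had no vehicle control, and no group was given 5-Fu in A431 or doxorubicin in MDA-MB-231. The labels call the replicates biological but do not say whether they were separate cultures, so p-values measure the spread between these libraries, which may be technical.

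Class I molecules carry short peptides from inside the cell to its surface, where CD8 T cells and natural killer cells read them. The proteasome cuts proteins into peptides, the TAP transporter moves the peptides into the endoplasmic reticulum, and there they are loaded onto a heavy chain paired with the light chain encoded by B2M. Interferons are known to raise these genes together, through STAT and IRF factors and through NLRC5, a transactivator of class I promoters, and in immunoproteasomes PSMB8, PSMB9 and PSMB10 take the places of PSMB5, PSMB6 and PSMB7.

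Depth ranged between 17757206 and 21756536 counts for A431 and between 19871048 and 22809339 for MDA-MB-231, and the 9 genes together took from 0.323% to 1.61% of a library's reads. All 9 passed the filter on low counts in each fit. In these bulk samples fewer cells of a type and less RNA per cell cannot be told apart. All treatments of a line were compared with the same untreated libraries. Most cell line markers compared here differed between the lines as labelled, but DSP, a desmosome gene on the epidermal list, had from 202 to 359 CPM in A431 and from 148 to 267 CPM in MDA-MB-231 (log2 0.06 between untreated lines, adjusted p = 0.48). KRT5, an epidermal keratin, had from 1435 to 3851 CPM, the read count scaled by the normalised library size, in A431 and at most 3.98 CPM in MDA-MB-231, whereas VIM, a mesenchymal filament protein, had at most 37.0 CPM in A431 and from 721.5 to 1993 CPM in MDA-MB-231. SPARC, also listed as a mesenchymal marker, was at most 3.71 CPM in MDA-MB-231. PTPRC, which marks leukocytes, did not exceed 1.96 CPM, and CD3E, which marks T cells, did not exceed 0.393 CPM. Untreated MDA-MB-231 replicate 1 stood apart, with a chi-square per degree of freedom of 70.8 and 81.8 against the other replicates, which gave 2.65 between them. Its deviation from the other untreated replicates of the line followed the GC content of the genes with a rank correlation of −0.60. The A431 vehicle libraries also differed among themselves (9.90 to 28.3), and their change from untreated cells followed GC content (rank correlation −0.58 across genes). Several values moved in fits without this replicate or with offsets for GC content and transcript length, and the larger moves are given below.

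On GRCh37, 8 of the genes lie on chromosome 6, in the major histocompatibility complex. HLA-F occupies 29691211 to 29695073 (forward strand, 7 exons in the canonical transcript), HLA-E 30457286 to 30461971 (forward, 8 exons), HLA-C 31236526 to 31239869 (reverse, 8 exons) and HLA-B 31321652 to 31324956 (reverse, 8 exons). The 4 processing genes stand side by side, with TAP2 at 32793192 to 32806516 (reverse, 12 exons), PSMB8 at 32808494 to 32811824 (reverse, 6 exons), TAP1 at 32812986 to 32821481 (reverse, 11 exons) and PSMB9 at 32821969 to 32827628 (forward, 6 exons). TAP1 and PSMB9 are transcribed away from each other, with 487 bases between their starts. B2M lies on chromosome 15 from 45003715 to 45010343 (forward, 4 exons). The counting tool and the treatment of strand and of multi-mapped reads are not given in the sources used here. TAP1 shares 577 exonic bases with the antisense gene PSMB8-AS1, HLA-F shares 257 with the antisense gene HLA-F-AS1, and TAP2 shares 2023 with a readthrough gene that has no row in the table. Reads of HLA-B and HLA-C, which are alike in sequence and vary between people, may also have been split or lost by the counting, so levels of these genes are uncertain.

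The sequences before the transcription starts are shown because several of these genes moved together and their promoters are known to carry interferon and NF-kappaB elements. Of the 9 genes, 8 matched the RefSeq promoter table (GRCh38.p14), and the exception was HLA-E. For 7 of the 8 genes the 250 bases before the first listed start are given 5′ to 3′ on the strand of the gene, and PSMB8, which held no capitalised motif, is not printed. Capitals mark matches, on either strand, to GAANNGAAA or GAAANNGAAA, spacings of the interferon-stimulated response element, or to the NF-kappaB consensus. Overlapping matches run together.
HLA-B (chr6:31357180-31357429, reverse strand): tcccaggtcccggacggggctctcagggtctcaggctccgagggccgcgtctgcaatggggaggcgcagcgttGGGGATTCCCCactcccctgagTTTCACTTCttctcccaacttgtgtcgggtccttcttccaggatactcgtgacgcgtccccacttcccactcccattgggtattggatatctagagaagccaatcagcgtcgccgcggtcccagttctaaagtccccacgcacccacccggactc
HLA-C (chr6:31272093-31272342, reverse strand): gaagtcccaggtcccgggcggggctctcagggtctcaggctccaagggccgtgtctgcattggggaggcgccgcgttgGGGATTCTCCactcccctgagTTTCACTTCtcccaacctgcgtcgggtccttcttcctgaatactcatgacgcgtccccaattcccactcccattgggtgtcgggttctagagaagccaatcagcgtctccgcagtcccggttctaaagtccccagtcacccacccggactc
HLA-F (chr6:29723184-29723433, forward strand): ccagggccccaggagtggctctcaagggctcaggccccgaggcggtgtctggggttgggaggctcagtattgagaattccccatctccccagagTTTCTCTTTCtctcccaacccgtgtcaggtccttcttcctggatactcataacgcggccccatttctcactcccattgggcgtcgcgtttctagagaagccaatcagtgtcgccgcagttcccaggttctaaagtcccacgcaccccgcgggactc
B2M (chr15:44711267-44711516, forward strand): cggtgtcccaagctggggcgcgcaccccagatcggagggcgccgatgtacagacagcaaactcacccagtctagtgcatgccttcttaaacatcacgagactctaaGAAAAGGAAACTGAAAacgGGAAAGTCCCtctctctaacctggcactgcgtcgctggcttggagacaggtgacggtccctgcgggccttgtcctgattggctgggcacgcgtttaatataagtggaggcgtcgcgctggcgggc
TAP1 (chr6:32853705-32853954, reverse strand): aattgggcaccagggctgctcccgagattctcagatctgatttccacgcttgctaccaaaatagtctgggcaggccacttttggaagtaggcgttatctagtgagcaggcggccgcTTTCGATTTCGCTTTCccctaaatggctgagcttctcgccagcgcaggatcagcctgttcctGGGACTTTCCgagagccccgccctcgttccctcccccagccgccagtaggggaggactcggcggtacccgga
TAP2 (chr6:32838740-32838989, reverse strand): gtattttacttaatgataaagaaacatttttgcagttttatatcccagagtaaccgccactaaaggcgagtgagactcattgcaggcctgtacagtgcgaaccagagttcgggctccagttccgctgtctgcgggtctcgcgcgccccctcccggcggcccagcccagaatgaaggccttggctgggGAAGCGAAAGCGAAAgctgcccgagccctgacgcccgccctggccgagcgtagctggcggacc
PSMB9 (chr6:32853942-32854191, forward strand): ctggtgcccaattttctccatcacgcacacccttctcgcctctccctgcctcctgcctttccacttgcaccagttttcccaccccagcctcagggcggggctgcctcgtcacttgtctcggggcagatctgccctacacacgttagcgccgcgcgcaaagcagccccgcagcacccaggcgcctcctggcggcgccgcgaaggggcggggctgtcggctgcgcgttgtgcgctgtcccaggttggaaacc
GAAANNGAAA was found in 4 of the 8 genes (HLA-F, B2M, TAP1 and TAP2) and in 3.02% of all 35116 promoters of this length. A gene was counted if any of its listed starts matched, of which TAP1 and PSMB8 have 2, whereas the shares are of single promoters. GAANNGAAA was found in 3 (HLA-B, HLA-C and TAP2) against 6.56% of all promoters, and the NF-kappaB consensus in 4 (HLA-B, HLA-C, B2M and TAP1) against 9.96%. In HLA-B the response element match lay 147 to 155 bases before the start, downstream of the NF-kappaB match at 167 to 177 bases, and HLA-C and HLA-F had theirs 143 to 151 and 147 to 156 bases before the start. The aligned promoters of HLA-B and HLA-C were identical at 89.0% of positions, HLA-B and HLA-F at 80.4%, and HLA-C and HLA-F at 78.7%. None of the 3 motifs was found in these windows of PSMB8, which has 2 listed starts, or PSMB9. TTCNNNGAA, a STAT site that reads the same on both strands, was found only before the second listed starts of TAP1 and PSMB8, against 6.57% of all promoters. CCAAT was found in 6 of the 8 genes (32.0% of all promoters), TGACG in 6 (21.2%) and GGGCGG in 4 (42.6%). These matches are descriptions of letters, and no binding was measured.

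Compared per kb of canonical transcript, on a scale shared by both lines, B2M was the most abundant of the 9 genes in untreated cells and TAP2 the least in A431. B2M had 1951.5 CPM per kb in untreated A431 cells (lowest 1919.5, highest 2009, n = 3) and 1177 in untreated MDA-MB-231 cells (957 to 1565), where it overlapped with HLA-B (957 to 989). Next in A431 came HLA-C at 975 (933.5 to 1041) and HLA-B at 910.5 (863 to 952), whose libraries overlapped, then HLA-E at 403.5, PSMB8 at 158, PSMB9 at 129, HLA-F at 51.7, TAP1 at 37.2 and TAP2 at 9.85. In MDA-MB-231 the order was B2M, HLA-B (972), HLA-C (467), HLA-E (211), PSMB8 (96.3), PSMB9 (62.4), TAP1 (41.0), TAP2 (16.9) and HLA-F (13.0). HLA-B, HLA-C, HLA-E and B2M exceeded both transporter transcripts in both lines, and TAP1 exceeded TAP2.

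Of the 9 genes, 3 were higher in untreated A431 than in untreated MDA-MB-231 cells and none was lower, beside 22.5% of the 14848 genes tested called higher and 20.4% called lower. A gene was called when its Benjamini-Hochberg adjusted p in edgeR's quasi-likelihood test was under 0.05 and its log2 fold change was beyond 1 in size. HLA-F, a heavy chain that can reach the surface without peptide, was 3.97-fold higher (log2 1.99 ± 0.068 SE, adjusted p = 9.7e-12). HLA-C, which presents peptides and is read by natural killer cell receptors, was 2.09-fold higher (log2 1.06 ± 0.065, adjusted p = 4.3e-09), and PSMB9 2.06-fold higher (log2 1.05 ± 0.093, adjusted p = 2.1e-07). HLA-E (log2 0.94), B2M (0.73) and PSMB8 (0.71) were higher and TAP2 lower (−0.78) with adjusted p of at most 0.00033, under the fold threshold, and HLA-B (−0.09, adjusted p = 0.17) and TAP1 (−0.14, adjusted p = 0.16) missed both. The median over the 9 genes was 0.73, beside 0.094 over all genes tested. By adjusted p alone 7 of the 9 genes differed, beside 78.6% of all genes. With RLE factors HLA-C and PSMB9 had log2 0.98 and 0.97, so that only HLA-F was called. With GC and length offsets HLA-C had 0.67, PSMB9 0.85 and PSMB8 0.47. The same offsets gave −0.45 for HLA-B (adjusted p = 7.8e-06) and −0.40 for TAP1 (adjusted p = 4.1e-06), both lower in A431 under the fold threshold. With the vehicle as the A431 control HLA-B had −0.24 (adjusted p = 0.0097), PSMB9 0.79, PSMB8 0.47 and TAP1 −0.32. Without untreated MDA-MB-231 replicate 1 B2M had 0.99 and TAP1 −0.24 (adjusted p = 0.00045).

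**Figure D1:**
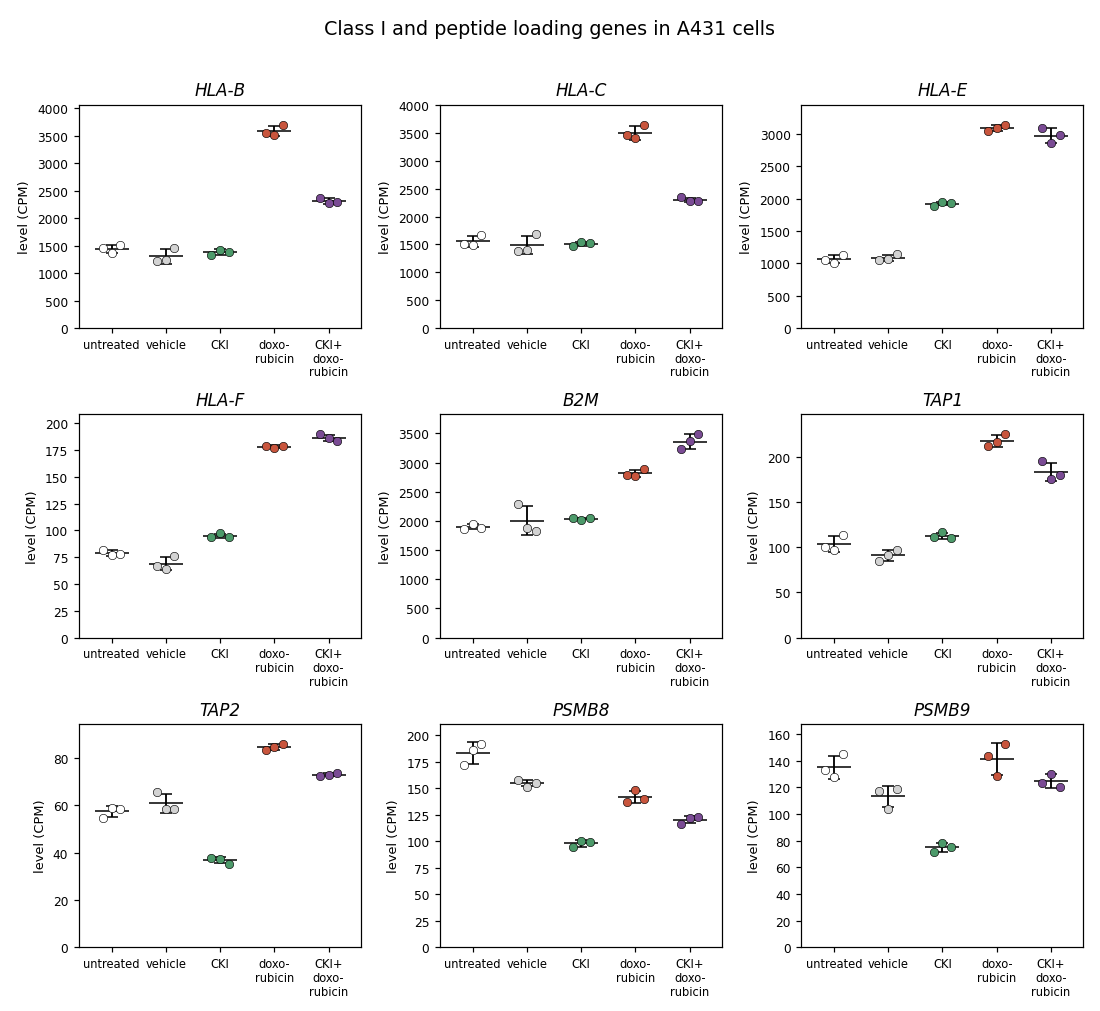
Level in CPM (y axis, from 0) of each gene in the 5 groups of A431 cells (x axis), where points are libraries, the horizontal bar is the mean and the whisker is 1 SD (n = 3). The doxorubicin and CKI+doxorubicin libraries sit above all untreated libraries for the 4 heavy chains, B2M, TAP1 and TAP2, and below them for PSMB8.

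Doxorubicin raised 5 of the 9 genes in A431 and lowered none, beside 23% of 15881 genes called higher and 14.3% called lower. The 5 were the 4 heavy chains and TAP1, at 2.11-fold to 2.91-fold of the untreated level. B2M and TAP2 were higher by less than the threshold, whereas PSMB8 was lower and PSMB9 missed the test. The median log2 fold change of the 9 genes was 1.07, beside 0.017 over all genes tested, and by adjusted p alone 8 of the 9 differed, beside 80.6% of all genes.

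HLA-E, a heavy chain that displays leader peptides of other class I chains to natural killer cells, had 1050.4, 1009 and 1127 CPM in the untreated libraries and 3043, 3091 and 3139.7 CPM with doxorubicin. The groups did not overlap, and the rise was 2.91-fold (log2 1.54 ± 0.053, adjusted p = 2.5e-17). HLA-B, a peptide-presenting heavy chain, had 1452, 1366 and 1517 CPM in untreated cells and 3559, 3525 and 3702 CPM with doxorubicin, a 2.49-fold rise (log2 1.32 ± 0.062, adjusted p = 7.8e-15). HLA-C followed it closely, from 1514, 1482 and 1665 CPM to 3472, 3404 and 3647 CPM (2.26-fold, log2 1.17 ± 0.065, adjusted p = 1.2e-13). HLA-F was far less abundant and rose from 81.9, 77.2 and 78.0 CPM to 179, 177 and 179 CPM (2.26-fold, log2 1.17 ± 0.060, adjusted p = 3.2e-14). Every doxorubicin library lay above every untreated and every vehicle library for these heavy chains.

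TAP1, the transporter subunit beside PSMB9, had 99.9, 96.6 and 113 CPM in untreated libraries and 212, 216 and 224 CPM with doxorubicin (2.11-fold, log2 1.07 ± 0.067, adjusted p = 1.1e-12). Its partner TAP2 had 54.7, 59.0 and 58.6 CPM against 83.3, 84.6 and 85.9 CPM, a difference of 0.56 ± 0.059 on the log2 scale (adjusted p = 1.2e-08) that was under the fold threshold. B2M had 1867, 1951 and 1884 CPM in untreated cells and 2788, 2769.8 and 2884 CPM with doxorubicin (log2 0.57 ± 0.063, adjusted p = 2.7e-08), a smaller value than those of the heavy chains, and its groups did not overlap. PSMB8 was lower with doxorubicin, at 137, 148 and 140.1 CPM against 172, 186 and 192 CPM (log2 −0.37 ± 0.056, adjusted p = 2.7e-06). With library size alone as scaling, which put the median of all genes at 0.361, the difference in PSMB8 was −0.03, and against the vehicle it was −0.13. PSMB9, although it stands head to head with TAP1, had 143, 128 and 153 CPM against 133, 128 and 145 CPM, and the groups overlapped (log2 0.07 ± 0.070, adjusted p = 0.39). Against the vehicle libraries, at 104.2 to 118.8 CPM, PSMB9 was higher with doxorubicin by 0.32 (adjusted p = 0.00024), without overlap.

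CKI alone raised or lowered none of the 9 genes past both thresholds in A431, beside 12% of genes called higher and 10.4% called lower, and the median of the 9 was −0.04. The adjusted p alone picked 5 of the 9, beside 67% of all genes, with HLA-E and HLA-F higher and PSMB8, PSMB9 and TAP2 lower. HLA-E had 1892, 1946 and 1932 CPM with CKI, all above its untreated libraries (1.81-fold, log2 0.86 ± 0.052, adjusted p = 9.5e-13). PSMB8 had 94.2, 100.4 and 99.0 CPM with CKI (log2 −0.90 ± 0.057, adjusted p = 1.9e-12) and PSMB9 71.4, 78.0 and 75.6 CPM (log2 −0.85 ± 0.071, adjusted p = 3.2e-10). All CKI libraries of both subunits lay below all untreated libraries. TAP2 had 37.9, 37.3 and 35.3 CPM with CKI (log2 −0.64 ± 0.062, adjusted p = 3.3e-09). HLA-F was slightly higher (log2 0.26, adjusted p = 0.00048), and HLA-B (−0.06, adjusted p = 0.38), HLA-C (−0.04, adjusted p = 0.61), B2M (0.10, adjusted p = 0.16) and TAP1 (0.12, adjusted p = 0.11) missed the test. With offsets for GC content and transcript length, HLA-E passed the fold threshold at log2 1.04, and HLA-B and HLA-C changed sign to 0.28 and 0.31. The same offsets gave −0.51 for PSMB8, −0.49 for PSMB9, 0.61 for HLA-F, 0.30 for TAP1 and 0.33 for B2M (adjusted p = 2.9e-08).

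Against the vehicle control, CKI again called none of the 9 genes, beside 11.3% of genes higher and 8.22% lower, with a median of 0.03. Without the fold threshold 6 of the 9 differed, beside 65% of all genes. HLA-E differed by log2 0.82 (adjusted p = 2.5e-12), PSMB8 by −0.66, PSMB9 by −0.59 and TAP2 by −0.72, while HLA-F was 0.46 higher and TAP1 0.30 higher (adjusted p = 0.00037). With offsets PSMB9 had −0.37 and B2M 0.42. These values share the CKI libraries with the comparison above. The vehicle itself called none of the 9 genes against untreated cells, beside 1.05% of genes higher and 1.5% lower, and the median was −0.15. By adjusted p alone 4 of the 9 differed, beside 42.5% of all genes. PSMB8 (log2 −0.24, adjusted p = 0.0014), PSMB9 (−0.25, adjusted p = 0.0058), HLA-F (−0.19, adjusted p = 0.015) and TAP1 (−0.18, adjusted p = 0.033) were lower with the vehicle, under the fold threshold. With GC and length offsets HLA-B, HLA-C, HLA-F and TAP1 had vehicle differences of 0.17, 0.29, 0.09 and 0.03 and turned in sign, while PSMB8 had −0.03 (adjusted p = 0.75) and PSMB9 −0.12 (adjusted p = 0.14). B2M in the vehicle libraries ranged from 1833 to 2287 CPM, the widest range of the gene in A431.

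CKI and doxorubicin together raised 2 of the 9 genes over untreated cells, HLA-E and HLA-F, and lowered none, beside 21.7% of genes called higher and 13.8% lower, with a median of 0.68. An adjusted p under 0.05 was reached by 8 of the 9, beside 79.2% of all genes. HLA-E had 3086, 2862 and 2976 CPM (2.80-fold, log2 1.49 ± 0.052, adjusted p = 4.6e-17) and overlapped with doxorubicin alone. HLA-F had 189.6, 187 and 184 CPM (2.36-fold, log2 1.24 ± 0.060, adjusted p = 1.2e-14). TAP1 (log2 0.83), B2M (0.82), HLA-B (0.68), HLA-C (0.57) and TAP2 (0.35) were higher with adjusted p of at most 1.5e-05, under the fold threshold, and PSMB8 was lower (−0.61, adjusted p = 1.4e-09). B2M reached its highest level of any group here, at 3232, 3368 and 3483 CPM. With library size alone, B2M and TAP1 also passed the fold threshold, both at 1.14, where the median of all genes was 0.360, HLA-C was at 0.88, TAP2 at 0.66 and PSMB8 at −0.29. With offsets HLA-C had 0.93 and TAP2 0.17, and against the vehicle TAP1 had 1.01 and PSMB8 −0.36.

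Added to doxorubicin, CKI called none of the 9 genes, beside 6.89% of genes higher and 8.03% lower, with a median of −0.21. The adjusted p alone picked 7 of the 9, beside 63.6% of all genes. HLA-B and HLA-C were lower, whereas HLA-E and HLA-F missed the test. HLA-B had 2369.6, 2270.0 and 2298 CPM with both agents, below all libraries with doxorubicin alone (log2 −0.64 ± 0.061, adjusted p = 5.4e-09), and HLA-C had 2345, 2279.7 and 2275 CPM (log2 −0.61 ± 0.064, adjusted p = 2.3e-08). HLA-E (−0.06, adjusted p = 0.36) and HLA-F (0.07, adjusted p = 0.33) missed the test, while B2M was higher (0.26 ± 0.063, adjusted p = 0.0011). TAP1 (−0.25), TAP2 (−0.21), PSMB8 (−0.23) and PSMB9 (−0.18) were lower, with adjusted p from 0.00092 to 0.027. With offsets the differences were −0.39 for HLA-B, −0.37 for HLA-C, −0.06 for TAP1 (adjusted p = 0.29), −0.01 for PSMB8 (adjusted p = 0.87) and 0.00 for PSMB9. The same offsets gave 0.31 for HLA-F (adjusted p = 6.5e-08) and 0.12 for HLA-E (adjusted p = 0.016), so that both passed the test.

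The interaction, which asks whether CKI acted differently in the presence of doxorubicin than in its absence, called none of the 9 genes, beside 8.56% of genes higher and 10.9% lower, with a median of −0.20. By adjusted p alone it picked 8 of them, beside 57.4% of all genes. HLA-E had an interaction of −0.91 ± 0.073 (adjusted p = 4.2e-10), the difference with CKI being 0.86 without doxorubicin and −0.06 with it. HLA-B and HLA-C each had −0.57 (adjusted p = 5.5e-06 and 1.1e-05), the CKI differences being −0.06 and −0.04 without doxorubicin and −0.64 and −0.61 with it. With offsets those without doxorubicin were 0.28 and 0.31. PSMB8 and PSMB9 each had 0.67 (adjusted p = 2.1e-07 and 5.0e-06), and TAP2 had 0.43 (adjusted p = 0.00016), the CKI difference being smaller beside doxorubicin. TAP1 had −0.37 (adjusted p = 0.0018), HLA-F −0.20 (adjusted p = 0.046) and B2M 0.15 (adjusted p = 0.14). With the vehicle as control PSMB8 had 0.42, PSMB9 0.41, TAP1 −0.55, HLA-F −0.39 (adjusted p = 0.00034) and B2M 0.23 (adjusted p = 0.03). GC and length offsets gave 0.50 for PSMB8, 0.49 for PSMB9 and −0.07 for B2M (adjusted p = 0.32).

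**Figure D2:**
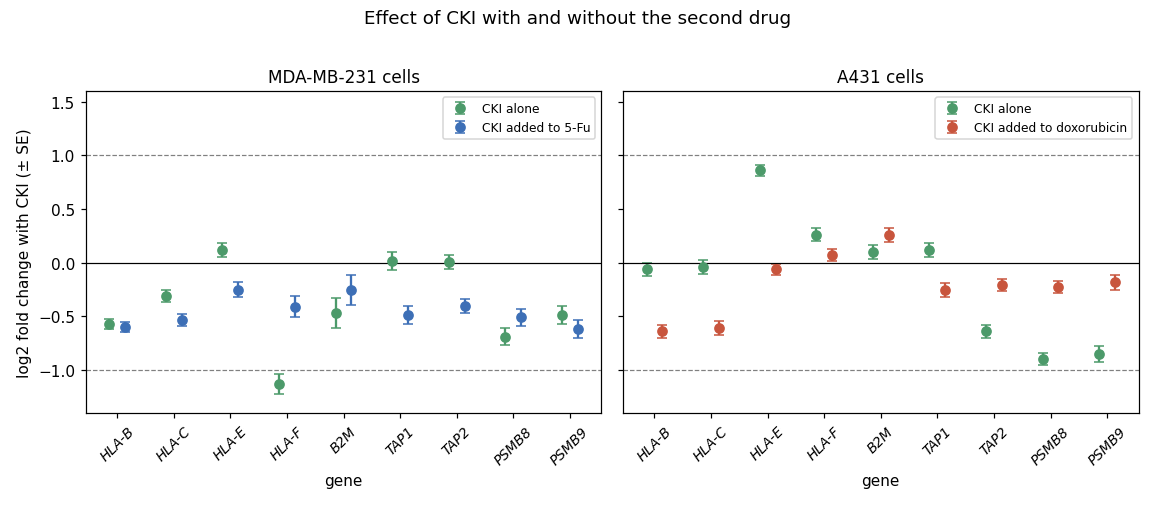
Log2 fold change with CKI (y axis, ± SE) of each gene (x axis), for CKI alone and for CKI added to the second drug, in MDA-MB-231 (left) and A431 (right); dashed lines mark the fold threshold of 1. In A431 HLA-E is at 0.86 without doxorubicin and −0.06 with it, and PSMB8 at −0.90 and −0.23; in MDA-MB-231 all 9 values with 5-Fu are below 0.

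In MDA-MB-231, CKI lowered 1 of the 9 genes, HLA-F, and raised none, beside 2.21% of 13999 genes called lower and 3.76% higher. The median of the 9 was −0.47, beside −0.007 over all genes tested, and 6 had an adjusted p under 0.05, each lower, beside 36.2% of all genes in either direction. HLA-F, the least abundant of the 9 genes in this line, had 21.4, 21.4 and 19.5 CPM in untreated libraries and 9.49, 9.59 and 9.41 CPM with CKI (2.19-fold lower, log2 −1.13 ± 0.093, adjusted p = 3.6e-06). PSMB8 had 127, 114 and 108 CPM in untreated cells and 75.1, 72.3 and 69.2 CPM with CKI (log2 −0.69 ± 0.080, adjusted p = 4.6e-05). HLA-B had 1614, 1616 and 1595 CPM against 1070.1, 1077 and 1095 CPM (log2 −0.57 ± 0.049, adjusted p = 4.2e-06). No CKI library overlapped with an untreated one for these genes, nor for PSMB9 (log2 −0.49, adjusted p = 0.00078) or HLA-C (−0.31, adjusted p = 0.0011). The groups were also apart for B2M, lower with CKI, and for HLA-E, higher with CKI though it missed the test. The share of all genes without overlap was not counted for this comparison.

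B2M in untreated MDA-MB-231 cells had 1568, 1031 and 979 CPM, the high value being that of the replicate that stood apart, and 874, 874 and 832 CPM with CKI. Its difference was −0.47 ± 0.14 (adjusted p = 0.018), and −0.23 without that replicate (adjusted p = 6.7e-05). B2M had the lowest GC content of the 9 transcripts (39.1%, the others at least 48.9%), and with GC and length offsets over all libraries the difference was −0.39 (adjusted p = 3.4e-07). HLA-E (0.12, adjusted p = 0.19), TAP1 (0.02, adjusted p = 0.86) and TAP2 (0.01, adjusted p = 0.94) missed the test.

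**Figure D3:**
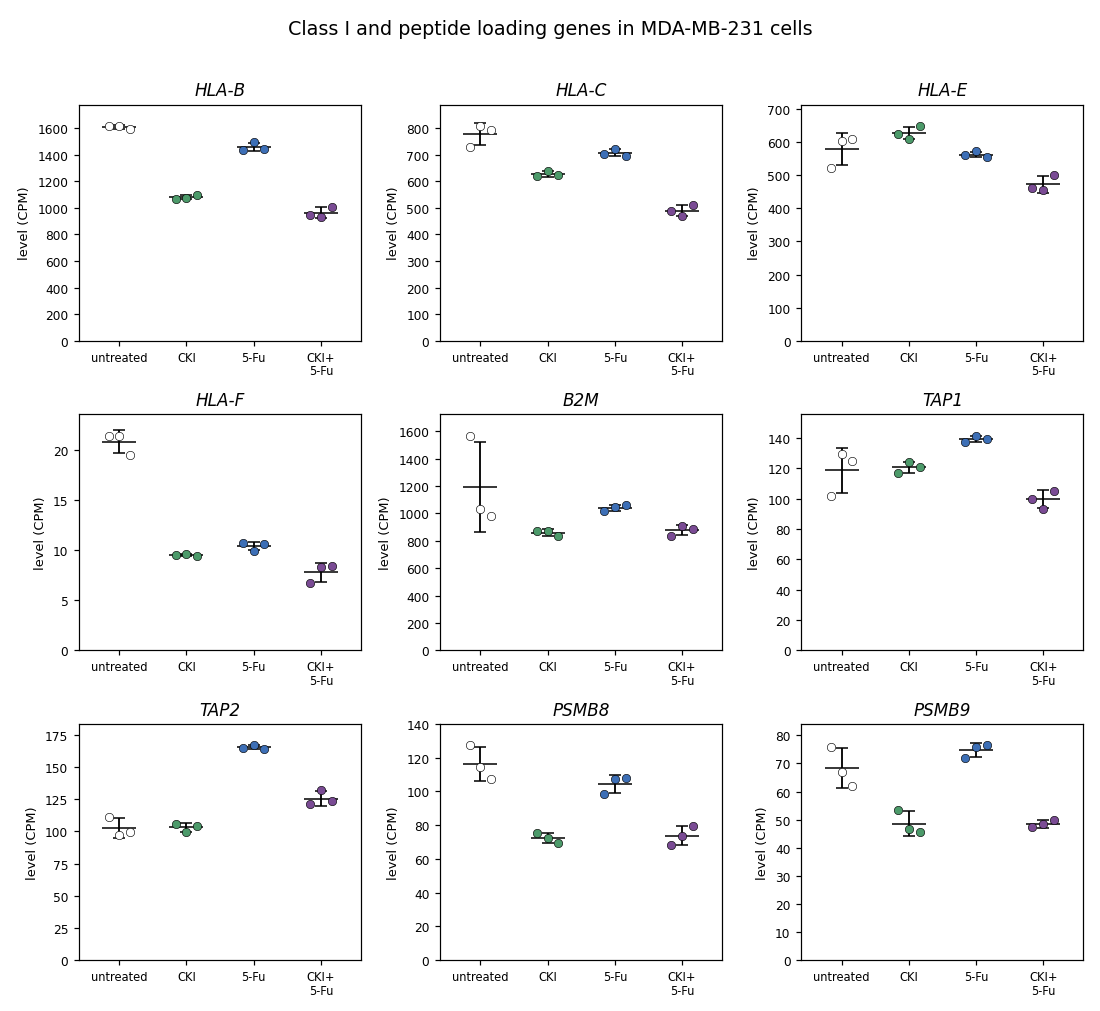
Level in CPM (y axis, from 0) of each gene in the 4 groups of MDA-MB-231 cells (x axis), where points are libraries, the horizontal bar is the mean and the whisker is 1 SD (n = 3). The CKI and CKI+5-Fu libraries sit below the untreated libraries for HLA-B, HLA-C, HLA-F, B2M, PSMB8 and PSMB9, and the 5-Fu libraries sit above them for TAP1 and TAP2.

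With 5-Fu none of the 9 genes was called, beside 6.01% of genes higher and 7.31% lower, with a median of −0.13. Without the fold threshold 4 of the 9 differed, beside 57.1% of all genes. HLA-F lay at the threshold, with 10.7, 9.91 and 10.6 CPM against 21.4, 21.4 and 19.5 CPM (log2 −1.0 ± 0.092, adjusted p = 2.4e-06), and DESeq2, with −1.01, called it. Both transporter genes had values in the other direction. TAP2 had 111, 97.3 and 99.3 CPM in untreated cells and 165, 167 and 164 CPM with 5-Fu (1.61-fold, log2 0.69 ± 0.064, adjusted p = 2.8e-06), its highest level in that line, and TAP1 had 102, 129.5 and 125 CPM against 137, 142 and 139 CPM (log2 0.23 ± 0.084, adjusted p = 0.031). HLA-B was slightly lower (−0.14, adjusted p = 0.026), and HLA-C (−0.13), HLA-E (−0.04), B2M (−0.20), PSMB8 (−0.16) and PSMB9 (0.13) had adjusted p from 0.054 to 0.62. Without untreated replicate 1 TAP1 had 0.13 (adjusted p = 0.024), PSMB9 0.21 (adjusted p = 0.0038), PSMB8 −0.09 and HLA-E −0.11 (adjusted p = 0.027), and the sign of B2M turned to 0.05. With offsets HLA-B had −0.07 (adjusted p = 0.30) and B2M −0.25 (adjusted p = 1.2e-05).

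CKI with 5-Fu lowered HLA-F over untreated cells and called no other gene of the 9, beside 4.76% of genes lower and 4.29% higher, with a median of −0.49. By adjusted p alone all 9 differed, beside 49.7% of all genes. HLA-F had 6.71, 8.27 and 8.39 CPM (2.66-fold lower, log2 −1.41 ± 0.094, adjusted p = 3.3e-07), its lowest level in that line. HLA-B (−0.74), HLA-C (−0.66), PSMB8 (−0.66), PSMB9 (−0.49), B2M (−0.44), HLA-E (−0.29) and TAP1 (−0.25) were lower with adjusted p of at most 0.024, and TAP2 was higher (0.29, adjusted p = 0.0027), under the fold threshold. Without untreated replicate 1, B2M had −0.19 (adjusted p = 0.00021), and with offsets it had −0.66, HLA-E −0.17 and TAP1 −0.10 (adjusted p = 0.048).

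Added to 5-Fu, CKI called none of the 9 genes, beside 5.26% of genes higher and 4.51% lower. All 9 had negative values, with a median of −0.49, and the CKI+5-Fu libraries did not overlap with the 5-Fu libraries for any of them, as for 68.9% of all genes tested. An adjusted p under 0.05 was reached by 8 of the 9, beside 50.4% of all genes. Differences ran from −0.25 in HLA-E (adjusted p = 0.0080) to −0.60 in HLA-B (adjusted p = 1.5e-06) and −0.62 in PSMB9 (adjusted p = 7.7e-05), and that of B2M was −0.25 ± 0.14 (adjusted p = 0.15), or −0.41 with offsets (adjusted p = 9.6e-08), which gave −0.16 for HLA-E. TAP1 fell short of the fold threshold at −0.49 (adjusted p = 0.00048), from 137, 142 and 139 CPM to 99.8, 93.4 and 105 CPM. The interaction of CKI and 5-Fu called none, beside 3.04% of genes higher and 3.81% lower, with a median of −0.13. By adjusted p alone it picked 5 of the 9, beside 31.4% of all genes, with HLA-F at 0.71 (adjusted p = 0.0020), TAP1 at −0.51 (adjusted p = 0.0067), TAP2 at −0.40 (adjusted p = 0.0056), HLA-E at −0.37 (adjusted p = 0.011) and HLA-C at −0.22 (adjusted p = 0.048), or −0.07 with offsets (adjusted p = 0.37). Without untreated replicate 1 PSMB9 had −0.22 (adjusted p = 0.041).

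The response to CKI differed between the lines past both thresholds for 1 of the 9 genes, beside 8.87% of genes higher and 9.62% lower in this interaction, and the median was 0.28. The adjusted p alone picked 7 of the 9, beside 47% of all genes. HLA-F had a difference of 1.40 ± 0.096 (adjusted p = 1.8e-07), being lower with CKI in MDA-MB-231 and slightly higher in A431. HLA-E (0.75, adjusted p = 4.2e-05), B2M (0.58, adjusted p = 0.027), HLA-B (0.52, adjusted p = 0.00028) and HLA-C (0.28, adjusted p = 0.024) were also more positive in A431, and TAP2 (−0.64, adjusted p = 0.00024) and PSMB9 (−0.35, adjusted p = 0.043) more negative, all under the fold threshold. PSMB8 (−0.21, adjusted p = 0.15) and TAP1 (0.10, adjusted p = 0.53) missed the test, and PSMB8 turned to 0.26 and PSMB9 to 0.09 with GC and length offsets, under which HLA-B had 1.0, past the threshold, and HLA-C 0.78. Without untreated MDA-MB-231 replicate 1 B2M had 0.32 (adjusted p = 8.5e-05), PSMB8 −0.29 (adjusted p = 0.0016) and TAP1 0.20 (adjusted p = 0.031). Since the lines had different drugs, their responses to the drugs were not compared.

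**Figure D4:**
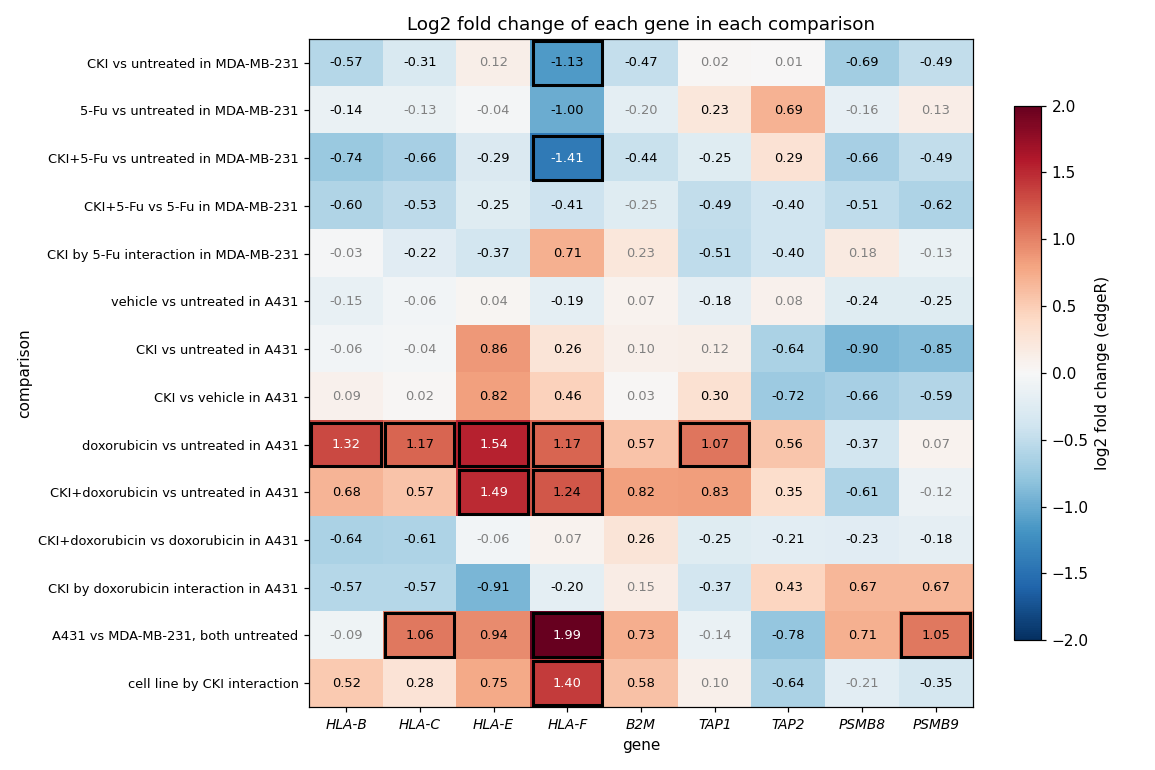
Log2 fold change (colour and number) of each gene (columns) in each of the 14 comparisons (rows); black boxes mark genes past both thresholds and grey numbers an adjusted p of 0.05 or more. Boxes stand at the 4 heavy chains and TAP1 for doxorubicin, at HLA-E and HLA-F for CKI+doxorubicin, at HLA-F for CKI and CKI+5-Fu in MDA-MB-231 (lowest −1.41), at HLA-C, HLA-F and PSMB9 between untreated lines, and at HLA-F for cell line by CKI.

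Ordered by mean level in A431, HLA-B and HLA-C ran doxorubicin, CKI+doxorubicin, untreated, CKI and vehicle, and the last 3 overlapped as neighbours. HLA-E ran doxorubicin, CKI+doxorubicin, CKI, vehicle and untreated, with overlap within the first pair and within the last pair. HLA-F and B2M were highest with both agents, and for HLA-F no neighbouring groups overlapped. PSMB8 ran untreated, vehicle, doxorubicin, CKI+doxorubicin and CKI with no overlap between neighbours. In MDA-MB-231, HLA-B, HLA-C and HLA-F ran untreated, 5-Fu, CKI and CKI+5-Fu, again without overlap between neighbours. From the highest to the lowest group mean, the ratio in A431 was from 1.77 (B2M) to 2.91 (HLA-E), and in MDA-MB-231 from 1.33 (HLA-E) to 2.67 (HLA-F).

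Across all 27 libraries, after centring within each line, HLA-B and HLA-C had a Pearson correlation of 0.99 and TAP1 correlated at 0.91 with HLA-B and 0.92 with HLA-E, whereas PSMB8 had 0.79 with PSMB9 but −0.40 with HLA-E and −0.11 with TAP1. In the 12 MDA-MB-231 libraries PSMB8 had 0.95 with HLA-B, beside −0.12 in the 15 A431 libraries. These are descriptions over libraries that share groups, depth and base composition. The 5 genes most like the mean of the 9, among 16660 genes over the 27 libraries, were DHX58 (0.959), a cytosolic RNA helicase of the RIG-I family, UBE2L6 (0.956), the conjugating enzyme for ISG15, STING1 (0.941), an adaptor of DNA sensing, TRANK1 (0.941) and TRIM22 (0.939), an interferon-inducible TRIM protein.

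Other genes of the pathway were taken as lists chosen with earlier results of these data known, and their counts are read beside the shares of all genes given above. Of 10 other processing and loading genes in A431, doxorubicin lowered 1 and raised none, with a median of −0.26. The gene was PSME1, a subunit of the proteasome activator (log2 −1.06, adjusted p = 1.2e-13). CKI lowered 3 of them against untreated cells, PSME2 (−1.73, adjusted p = 3.0e-17), PSME1 (−1.05, adjusted p = 2.2e-13) and ERAP2, an aminopeptidase that trims peptides (−1.05, adjusted p = 1.2e-08). Against the vehicle CKI lowered 2 of the 10 (median −0.39). Both agents together lowered 4, CALR (−1.05), a chaperone of heavy chains, PSME1 (−1.05), TAPBP (−1.20), which joins TAP to the heavy chain, and PSMB10 (−1.10), the other immunoproteasome subunit. TAPBP had a mean of 281 CPM in untreated A431 cells, 173 with doxorubicin and 123 with both. In MDA-MB-231, PSMB10 was the 1 gene of the list lowered by CKI (−1.26, adjusted p = 0.00012) and by CKI with 5-Fu (−1.34, adjusted p = 3.9e-05), and none was called with 5-Fu alone.

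Of 13 constitutive proteasome core genes with a row, doxorubicin lowered 5 in A431 (median −0.77), with PSMA7 at −2.11 (adjusted p = 9.8e-19), PSMB1 at −1.29, PSMB2 at −1.24 and PSMB7 at −1.21. CKI lowered none past both thresholds, but 12 of the 13 had negative values, with a median of −0.64. The subunits that PSMB8, PSMB9 and PSMB10 replace, named after their values were seen, had −0.59 (PSMB5), −0.71 (PSMB6) and −0.53 (PSMB7) with CKI in A431, beside −0.90, −0.85 and −0.96 for their counterparts. Against the vehicle PSMB8 had −0.66 and PSMB9 −0.59, beside a median of −0.56 over the 13 core genes. With GC and length offsets PSMB8 and PSMB9 had −0.51 and −0.49 against untreated cells. Whether the subunits differed from their counterparts was not tested. In MDA-MB-231 no core gene was called with CKI (median 0.07), 5-Fu (−0.04) or both (0.09), while PSMB8 and PSMB9 were lower with CKI there.

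Of 20 class I regulators tested in A431, doxorubicin raised 5 and lowered 2 (median 0.08). STAT2, a transcription factor of the interferon response, rose from a mean of 60.7 to 404 CPM (log2 2.74, adjusted p = 2.9e-19), and the interferon gene IFNL1 from 0.137 to 7.97 CPM (5.79, adjusted p = 1.3e-14). IFNGR2, a chain of the interferon gamma receptor, fell (−1.07, adjusted p = 1.2e-11). With CKI added, IFNL1 fell to 3.42 CPM (−1.22 against doxorubicin, adjusted p = 2.1e-07) and IFNB1 from 1.05 to 0.432 CPM (−1.26, adjusted p = 0.0044). No regulator was called higher there, and NLRC5, named although it was not called, had 137 CPM, beside 105 CPM with doxorubicin alone. Against untreated cells, CKI alone raised STAT2 (1.13) and JAK2 (1.04) and lowered IRF1 (−1.06) and IRF9 (−1.27). Against the vehicle it raised none of the 20 regulators and lowered 1 (median −0.07). IRF1, an activator of class I and immunoproteasome promoters, had a mean of 176 CPM in untreated A431 cells and 84.5 CPM with CKI. Of the 18 regulators tested in MDA-MB-231, none was called with CKI (median −0.14), 5-Fu (0.15) or both (−0.08), and IRF9 fell when CKI was added to 5-Fu (−1.46, adjusted p = 0.00051). Of 18 regulators tested between the untreated lines, 3 were called higher in A431 and none lower, beside 22.5% and 20.4% of all genes. They were IRF1 (1.06), NLRC5 (1.09) and IRF9 (1.12), and the median of the 18 was 0.05.

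Of 11 class I-like genes and stress ligands tested in A431, doxorubicin raised 5 and lowered none. Among them RAET1L (4.55), MICB (2.28), ULBP2 (2.03) and MICA (1.40) encode ligands of NKG2D, an activating receptor of natural killer cells. CKI raised 3 against untreated cells, MICA (1.21), RAET1E (1.25) and RAET1L (1.02), and 1 of the 11 against the vehicle (median 0.67). In MDA-MB-231 CKI raised MICA alone of the 10 tested (1.01, adjusted p = 1.5e-07). Class II genes present peptides to CD4 T cells. Of 9 tested in MDA-MB-231, CKI lowered 3 (median −0.89), HLA-DRA at −1.74, HLA-DPA1 at −1.07 and HLA-DRB1 at −1.04, and CKI with 5-Fu lowered 6 (median −1.25). Of 8 tested in A431, CKI lowered 3 against untreated cells (median −0.83), among them CIITA, the class II transactivator (−1.17). The vehicle lowered 1 of the 8 against untreated cells (median −0.79), and against the vehicle CKI called none (median −0.02). Class II levels were low in A431, with 92.2 to 98.8 CPM summed over 10 genes in untreated libraries, beside 858 to 961 CPM in MDA-MB-231. The A431 sum was 50.6 to 57 CPM with the vehicle and 49 to 57.4 CPM with CKI.

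Genes of the same region that every cell uses were counted in all libraries, with none of 15 at 0 in any group. Alternate haplotypes in an alignment index can take reads of the region, and the contents of the index are not given in the sources used here. Counts of these 15 genes cannot show whether HLA reads were partly lost or split, which was not tested. The sum over the 15 genes was from 6732 to 7325 CPM in untreated A431 cells, 2919 to 2963 with doxorubicin, and 7403 to 8814 in untreated MDA-MB-231 cells. Doxorubicin lowered 3 of the 15 and raised 1, with a median of −0.2, and TUBB, a tubulin gene, fell by 3.07 on the log2 scale there. The leukocyte list, 3 of whose 6 genes were tested in A431, summed to 8.23 to 9.60 CPM in untreated and 17.3 to 19.1 CPM in doxorubicin libraries, with 2 of the 3 called higher. These were CSF1R, which went from a mean of 0.845 to 8.71 CPM, and PTPRC, which was at 0 in the untreated libraries and had a mean of 1.31 CPM with doxorubicin. Its part in the class I result was not tested, beyond the levels of PTPRC and CD3E given above. Of the 6 epidermal and 5 mesenchymal markers, doxorubicin raised 2 and 2 and lowered 2 and 1.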

How the data were processed

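RNA-seq counts per gene of 27 libraries were used as the authors deposited them, in 1 table of raw read counts with Entrez gene IDs. Per the submitters' processing notes reads were trimmed with Trim Galore 0.3.7 and aligned to hg19 with STAR 2.5.3a, and edgeR was used. The counting tool, annotation and rule for multi-mapped reads are not given in the sources used here, and the kit does not mark strand. Symbols came from RefSeq (24422 of 24566 rows), and coordinates, lengths and GC content from canonical transcripts of GENCODE on GRCh37.

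From the counts, edgeR 4.0.16 (R 4.3.3) was fitted with TMM factors, filterByExpr and the quasi-likelihood F test, once per line over all its groups, and once over the 12 untreated and CKI libraries for comparisons between lines. P-values were Benjamini-Hochberg adjusted over all genes tested, and SE is the log2 fold change divided by the root of F. CPM are on the scale of each line's own fit, whereas a scale over all 27 libraries had been planned. GC and length offsets came from lowess fits. Scripts were tested on simulated data. The members and lists were chosen with earlier results of these data known. From each list at most 4 called genes per comparison were named, by smallest adjusted p, and exceptions are stated. Promoter sequences are RefSeq (GRCh38.p14), and coordinates were not converted between builds. The 14 comparisons were repeated with DESeq2 1.42.0, other factors, filters, offsets, the replicate block and each library left out. Replicate numbers did not pair the samples (correlations of same-numbered deviations −0.20 to 0.07). Some genes of the lists are not reported here.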

Additional observations from a re-analysis of the deposited data

Results flagged for a closer look

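HLA-F was singled out because its response to CKI differed between the cell lines in a test of the difference itself, the interaction of cell line and CKI in edgeR. The interaction was 1.40 on the log2 scale (SE 0.096, adjusted p = 1.8e-07), with a log2 fold change of −1.13 in MDA-MB-231 and 0.26 in A431. In all 3 CKI libraries of MDA-MB-231 the level was below, and in all 3 of A431 above, every untreated library of the line. HLA-F shares 257 exonic bases with its antisense gene HLA-F-AS1, and the part of that overlap in the difference was not tested.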

How the results depend on the processing

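By adjusted p alone, without the fold threshold, the genes called were 6 for CKI, 4 for 5-Fu, 9 for CKI+5-Fu, 8 for CKI added to 5-Fu and 5 for their interaction in MDA-MB-231. In A431 they were 4 for the vehicle, 5 for CKI, 6 for CKI against vehicle, 8 for doxorubicin, 8 for CKI+doxorubicin, 7 for CKI added to doxorubicin and 8 for their interaction, and 7 for each comparison between lines. Under 5-Fu the count went from 0 to 1 (HLA-F) with DESeq2, RLE factors or no filter, and was 0 to 1 with a library left out (1 without 5-Fu replicate 1 or 3 or untreated replicate 3, where HLA-F had −1.02, −1.01 and −1.05). For CKI in A431 it went from 0 to 1 (HLA-E, 1.04) with GC and length offsets, with or without the replicate block. With library size alone it went from 2 to 4 for CKI+doxorubicin and from 0 to 1 for CKI by doxorubicin (HLA-E, −1.05). Between untreated lines it went from 3 to 1 with DESeq2, RLE factors, library size alone, no filter, 10 counts in every library, the compared groups alone, or GC and length offsets with or without the replicate block, and was 1 to 3 with a library left out (1 without A431 untreated replicate 1 or 3). For cell line by CKI the offsets gave 2 in place of 1. With the vehicle as the A431 control it was 3 in place of 2 for CKI+doxorubicin (TAP1, 1.01) and 2 in place of 3 between untreated lines (PSMB9, 0.79). The cause of these changes was not tested.

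Signs turned for small values. With library size alone, HLA-E had 0.09 with 5-Fu, HLA-B 0.05 and HLA-C 0.07 with CKI in A431, and PSMB9 0.20 with CKI+doxorubicin (0.01 with 10 counts in every library). Without a filter TAP2 had 0.00 with CKI in MDA-MB-231. With offsets, and equally with the replicate block added, TAP1 had −0.02 with CKI in MDA-MB-231, HLA-B 0.10 and B2M −0.02 in CKI by 5-Fu, HLA-B 0.28 and HLA-C 0.31 with CKI in A431, PSMB9 −0.03 with doxorubicin, HLA-E 0.12 with CKI added to doxorubicin, B2M −0.07 in CKI by doxorubicin, and PSMB8 0.26 and PSMB9 0.09 in cell line by CKI. PSMB9 with CKI added to doxorubicin had 0.00 with offsets and 0.01 with the block as well. The vehicle differences with offsets were 0.17 (HLA-B), 0.29 (HLA-C), 0.09 (HLA-F), −0.09 (B2M), 0.03 (TAP1) and −0.04 (TAP2). With the vehicle as control, HLA-B had 0.09, HLA-C 0.02 and PSMB9 with both agents 0.14, and PSMB8 in cell line by CKI 0.04. With a library left out, HLA-C with CKI in A431 was −0.07 to 0.01 and against vehicle −0.03 to 0.12, and B2M was −0.04 to 0.13 against vehicle, −0.03 to 0.14 for the vehicle, −0.32 to 0.05 with 5-Fu and −0.02 to 0.35 in CKI by 5-Fu. In MDA-MB-231 with CKI, TAP1 was −0.08 to 0.09 and TAP2 −0.03 to 0.07, and PSMB9 with doxorubicin was 0.00 to 0.12. The replicate block alone changed none of 126 calls. Depth limits HLA-F most, at 6.71 CPM in its lowest library.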
